A study of Medicago truncatula with 14 samples.

Results

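Wide LSH1 regions are stretches of the Medicago truncatula genome, 2000 bp or more from end to end, that carried peaks in every one of 4 replicate chromatin immunoprecipitations of LSH1. They were chosen by merging all peaks of the 4 LSH1 lists that overlapped by at least 1 bp, and by keeping the merged regions on chromosomes 1 to 8 that held a peak from each list and reached the minimum width. This gave 258 regions, of 53966 merged LSH1 regions in all. They made up 5.58% of the 4620 merged regions with a peak in all 4 lists on these chromosomes, and the other 4362 are called narrower regions here. Peak width and recurrence over the 4 lists chose the members, so width, recurrence and place in these lists are given as descriptions with no test.

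The LSH1 libraries came from hairy roots of ecotype jemalong, cultivar Jester, that were transiently transformed with LSH1 fused to GFP under the Lotus japonicus ubiquitin promoter (LjUBI), and the NIN libraries from roots with a GFP fusion of NIN under that promoter. Both groups were grown without symbionts on medium with 0.5 mM NH4NO3 for 3 weeks. Each of the 4 LSH1 lists and 3 NIN lists was made from 1 immunoprecipitation and the control library of the same number, and the purpose given was to search for binding sites of both proteins. In the labels each control carries its immunoprecipitation's own construct, whereas the protocol also names GFP with a nuclear localisation signal as a control, so what the control libraries held cannot be told apart. The promoter drives the fusions throughout the root and at levels that need not be those of the native genes. Nothing in the labels states that replicates grew as separate cultures. The LSH1 lists held 18750 to 25127 peaks and the NIN lists 14021 to 84178, and no read numbers were used, which leaves the depth behind each peak unknown.

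LSH1 (LIGHT SENSITIVE SHORT HYPOCOTYL 1) belongs to the plant ALOG proteins, nuclear regulators of transcription with a conserved DNA-binding domain that are known for setting the identity and boundaries of lateral organs. In legumes it is studied for the identity of the root nodule, together with NIN, the RWP-RK transcription factor that starts nodule formation. A narrow-peak caller returns a long interval where reads are enriched without a break, and a group of close intervals where enrichment comes in several summits. Merging over replicates joins both into a wide region.

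The members were mostly little wider than the minimum. Their median width was 2425 bp, with quartiles of 2142 and 2732 bp, against a median of 914 bp for the narrower regions. Of the 258, 148 were under 2500 bp wide, 69 from 2500 to 3000 bp, 33 from 3000 to 4000 bp and 8 wider than that. The 6 members nearest to the threshold, 2 of them tied at 2014 bp, were 2007 to 2014 bp wide, with mean places of 0.296 to 57.2% in the lists, and the 5 widest regions left out were 1994 to 1996 bp wide, with mean places of 9.62 to 34.6%. Place is 100 times the running number of a region's best-placed peak over the length of its list, averaged over the 4 lists, so that low values stand first. Place did not jump at the threshold: its median was 6.76% in the 49 members under 2100 bp and 6.53% in the 68 regions of 1900 bp or more that were left out. The number of members rested on LSH1 replicate 2 most: rebuilt from the other 3 lists it was 156, and 183 to 228 where another list was left out. At this width 258 of the 265 merged regions of 2000 bp or more on the chromosomes had peaks in all 4 lists and the other 7 in 3. Each list that adds a peak can widen a merged region, so this count depends in part on the merging.

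Most wide regions were assembled from several peaks. Peaks of replicates 1 to 4 covered a median of 1832, 1971, 1334 and 1745 bp per region. Replicate 3 thus covered least, and it was the list with the fewest bases in 157 of the 258 regions, while replicate 2 had the most in 110. A region held 1.67 ± 0.105 separate peaks per list (SD, n = 4), and in each list 106 to 142 regions held 1 peak, 100 to 119 held 2 and 16 to 36 held 3 or more. Neighbouring peaks of a list within a region were separated by a median of 242 to 340 bp. Only 22 regions had a single peak in every list, and 131 had no single peak of 2000 bp in any list. In 42 regions no list reached 2000 bp even from its first peak to its last, and the merged width exceeds what any single list spans. Of all bases in wide regions, 37.9% lay under peaks of all 4 lists and 21.2% under peaks of 1 list, against 34.1% and 24.9% in narrower regions. In 8 wide regions no base was common to the 4 lists.

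**Figure D1:**
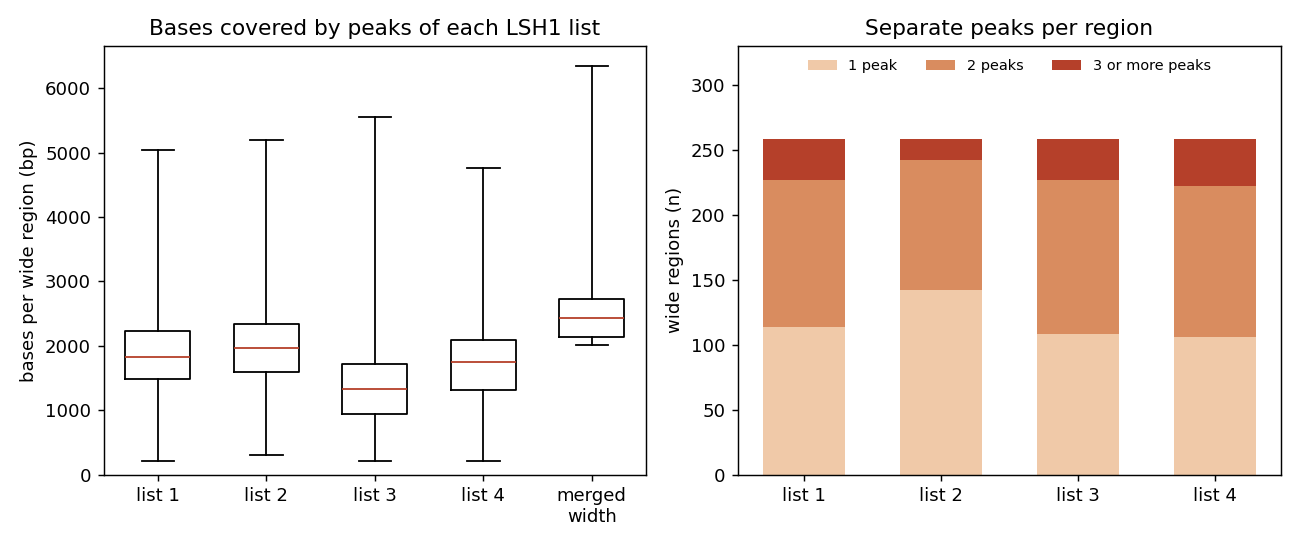
Bases of each wide region covered by peaks of each LSH1 list (left, boxes are quartiles, lines medians, whiskers the full range, with the merged width at the right) and the number of regions with 1, 2 or 3 or more separate peaks in each list (right), for 258 regions. List 3 has the lowest median, 1334 bp, and list 2 the most regions with a single peak, 142.

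Regions with 1 peak in every list stood earlier in the lists at the median than the others. These 22 regions had a median mean place of 0.640%, and 59.6% of their bases were common to all lists. The 236 regions with more than 1 peak in some list had 6.15% and 35.9%. A split by peak length is a different one, as a region with 1 peak in every list can lack a peak of 2000 bp. The 131 regions without any peak of 2000 bp had a median mean place of 8.06% and 28.8% common bases, against 2.94% and 45.9% for the 127 regions with such a peak. Over all members the median mean place was 4.94%, with quartiles of 1.47 and 13.7% and a range of 0.0109 to 66.7%, against a median of 22.0% for narrower regions. Place takes the best peak of a region in each list, which favours regions with more peaks, as wide ones have. By list, the median place was 3.73 to 4.84% for best peaks and 9.60 to 13.2% for all peaks in wide regions. In narrower regions it was 12.7 to 18.1% for best peaks. Wide regions were 22 of the first 50 and 145 of the first 1000 regions by mean place. Within the members, wider regions were only slightly better placed (Spearman rho of -0.15 between width and mean place across 258 regions, which are not independent replicates). Places agreed between lists more closely than covered bases did. Spearman rho across regions was 0.81 to 0.86 for place and 0.43 to 0.52 for bases over the 6 pairs of lists.

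Whether wide regions recur in a list that took no part in choosing them was examined by leaving each LSH1 list out in turn and rebuilding wide and narrower regions from the other 3. The 4 sets of wide regions numbered 183, 156, 228 and 194 for replicates 1 to 4 held out. Peaks of the held-out list were found in 100%, 99.4%, 98.7% and 98.5% of these wide regions, against 90.7%, 89.3%, 72.1% and 77.4% of the narrower ones. Over wide and narrower regions together the shares were 91%, 89.6%, 73% and 78.1%. The wide share was higher with each of the 4 lists held out, by 16.8 ± 8.48 percentage points (SD, n = 4). The two-sided exact sign-flip permutation p was 0.13, the smallest that 4 lists allow, so this design cannot reach 0.05. A wide region is also a larger target. Counted per base, held-out peaks covered 72.4%, 76.1%, 51.9% and 64.9% of wide regions, against 65.0%, 67.7%, 41.6% and 49.6% of narrower ones and 1.59 to 2.41% of the 8 chromosomes. This difference was 10.4 ± 3.54 percentage points (SD, n = 4; exact sign-flip p = 0.13, again the smallest possible), and it had the same direction in 4 of 4 lists. The 4 sets of regions overlap one another, so the 4 differences are not independent. Wide regions without a held-out peak are the same 7 regions of 3 lists counted above. Wide and narrower regions were not matched for place. The median place in the held-out list was 3.54% for wide and 15.1% for narrower regions (means of 4 lists). Held-out lists also held more than 1 peak per wide region, with 1.67 ± 0.0890 in those found, against 1.09 ± 0.0137 in narrower regions (SD, n = 4).

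**Figure D2:**
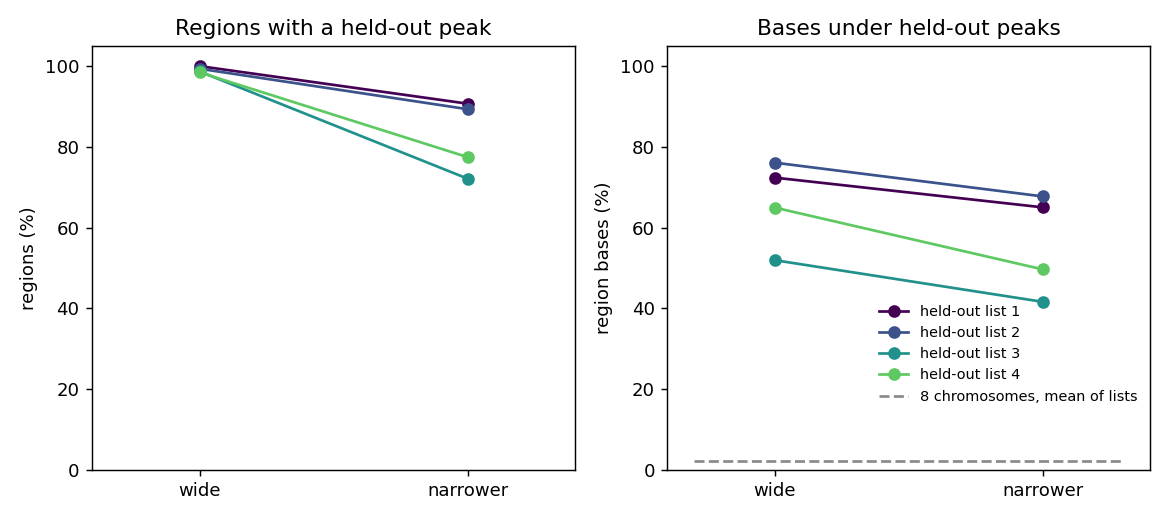
Share of regions with a peak of the held-out LSH1 list (left, %) and share of region bases under its peaks (right, %), for wide and narrower regions rebuilt from the other 3 lists. Each line is 1 held-out list, and the dashed line is the mean share of the 8 chromosomes under a list's peaks. All lines lie higher for wide regions, with 98.5 to 100% against 72.1 to 90.7% of regions.

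Wide regions lay in coding genes more than narrower ones did. Gene positions took no part in the rule. Of the 258 wide regions, 192 (74.4%) overlapped a coding gene, against 2025 of 4362 narrower regions (46.4%) and 48% of both together. Width alone raises such a count, so bases were compared. Coding genes held 47.8% of the bases of wide regions, 33.9% of those of narrower regions and 30.5% of the bases of the 8 chromosomes. By list, 47.8% ± 1.63 of peak bases in wide regions and 33.5% ± 1.06 of those in narrower regions lay in coding genes (SD, n = 4), with ranges of 46.3 to 49.8% and 32.3 to 34.8% that do not overlap. No test was made on these, because the lists share the regions. The share was higher in wide regions on 8 of 8 chromosomes, where it ran from 39.2 to 53.3%, against 27.8 to 37.5% in narrower regions.

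The share of bases in genes was higher with each step of width, from 23.3% in regions under 500 bp to 40.1% at 1500 to 2000 bp, 46.3% at 2000 to 2500 bp, 49.2% at 2500 to 3000 bp and 49.7% above that. The 2000 bp threshold therefore did not mark a break. Wide regions are also better placed by their best peaks, so the comparison was repeated within bins of mean place. Up to 5% it was 44.2% in 130 wide and 35.1% in 637 narrower regions, from 5 to 20% it was 50.7% in 87 wide and 30.6% in 1404 narrower regions, and beyond 20% it was 54.4% in 41 wide and 35.8% in 2321 narrower regions. Wide regions had the higher share in each bin, and the best-placed wide regions had the lowest share among the wide ones.

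**Figure D3:**
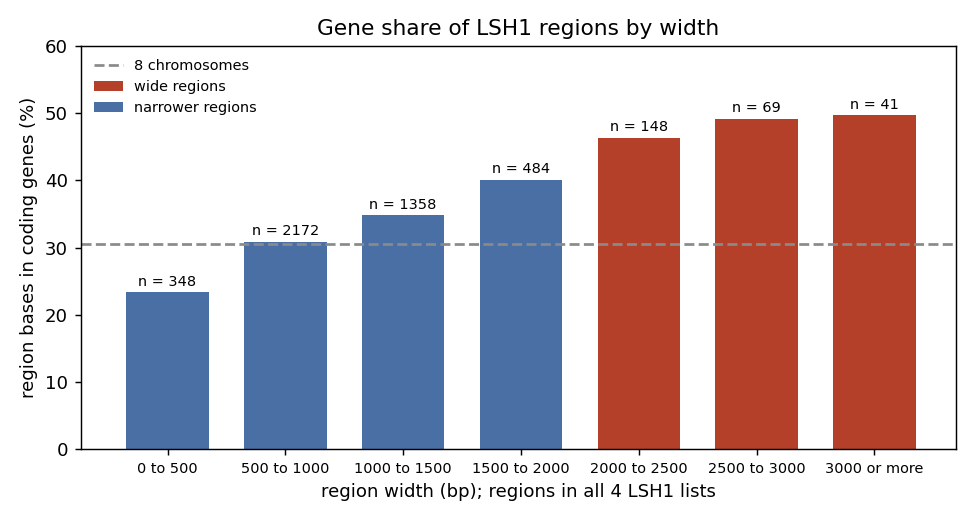
Share of region bases inside coding genes (%), by region width (bp), for all regions with a peak in all 4 LSH1 lists; n is the number of regions, and the dashed line is the share of the 8 chromosomes. The share is 23.3% in the narrowest class and 49.7% in the widest.

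From 250 to 2250 bp inside genes, peak bases were more frequent in wide than in narrower regions, relative to the chromosomes. Width enters this comparison, since a longer region that meets a gene end can reach deeper by its size alone. The 2 sets were not matched for width. The gene table gives no strand, so starts and ends of genes were pooled. Within 250 bp inside a gene end, peak bases of wide regions were 2.09 ± 0.0867 times as frequent as chromosome bases, against 2.35 ± 0.0427 times for narrower regions (SD over lists, n = 4 each). At 1000 to 1250 bp inside a gene the ratios were 1.59 ± 0.0401 for wide and 0.955 ± 0.0454 for narrower regions, and at 1500 to 1750 bp they were 1.68 ± 0.160 and 0.797 ± 0.0458. Deeper than 2250 bp inside genes narrower regions stood higher. At 2750 to 3000 bp inside, the ratios were 0.434 ± 0.0889 for wide and 0.539 ± 0.0549 for narrower regions. Beyond 500 bp outside genes narrower regions stood higher as well. At 2000 to 2250 bp outside, the ratios were 0.796 ± 0.0466 for wide and 1.08 ± 0.00959 for narrower regions. Both profiles were highest within 500 bp of gene ends, and the wide one stayed above the chromosome level as far as 2250 bp into the gene.

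**Figure D4:**
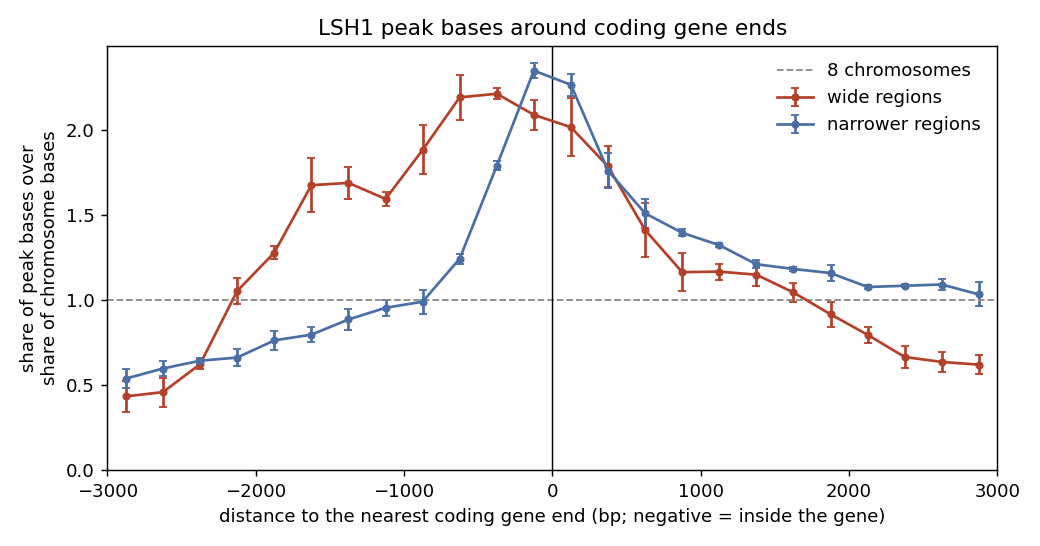
Share of LSH1 peak bases over share of chromosome bases in bins of 250 bp, by distance from the nearest coding gene end (bp, negative values inside the gene); points are means and bars SD over 4 lists, and the dashed line marks equal shares. At 1500 to 1750 bp inside genes the wide regions stand at 1.68 and the narrower ones at 0.797.

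The most common arrangement was a region across 1 end of a single gene. It was found in 122 of the 258 members (47.3%), against 28.6% of narrower regions, with a median of 1474 bp inside the gene and 857 bp outside, and more bases inside than outside in 76. Another 33 regions (12.8%) lay wholly inside 1 gene, against 16.0% of narrower regions; these genes had a median length of 5855 bp. A whole coding gene lay within 29 regions (11.2%), against 0.688% of narrower regions, and these 29 genes were short, with a median length of 1345 bp and a range of 291 to 2320 bp. Width enters all of these shares. Narrower regions had a median width of 914 bp and at most 1996 bp, so few could hold a whole gene. A gene held whole is also no longer than its region. Only 8 regions touched the ends of 2 or more genes without holding a whole gene. No coding gene was overlapped by 66 regions, of which 30 had a gene within 2000 bp and 36 did not, and the farthest was 14588 bp from a gene.

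Members overlapped 201 of 31728 coding genes (0.634%), while LSH1 regions of any width in all 4 lists overlapped 6.75%. Without LSH1 replicate 2 the wide regions of the other 3 lists overlapped 118 genes. The 201 genes had a median length of 3314 bp, against 3803 bp for the 1941 genes met by narrower regions only and 3203 bp for all coding genes. They were thus shorter at the median than genes of narrower regions and slightly longer than all genes. The space to the next coding genes on both sides summed to a median of 14205 bp, against 13121 bp and 12231 bp. In the median gene 46.9% of the length was covered, and 94 genes were covered over at least 50% of it. Of the noncoding genes, 8 of 2561 lncRNA genes, 1 of 746 tRNA genes and 1 of 971 snoRNA genes were overlapped, and 0 of 1407 rRNA genes. Narrower regions overlapped 69, 16, 1 and 1 genes of these types, so they too met almost no rRNA gene. Of 1562 pseudogenes, wide regions overlapped 0 and narrower regions 31. No member lay within 5000 bp of an annotated rRNA gene.

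The members were spread over all chromosomes. There were 0.606 per Mb in all, with the most per Mb on chromosome 1, which held 47, then 0.772 on chromosome 4, and the fewest on chromosome 6, with 7 or 0.163 per Mb. Chromosome 6 also had the fewest narrower regions, at 4.18 per Mb against 10.2 over the 8 chromosomes, and the fewest coding genes, at 57.3 per Mb against 74.5. Wide regions were 3.76% of its regions in all 4 lists, and 4.53 to 6.40% of those on the other chromosomes. A wide region had a mean of 2.38 other LSH1 regions of at least 2 lists within 10000 bp, against 2.05 for narrower ones. Wide regions themselves were rarely close to each other. The median gap between neighbours was 670 kb, and 17 of the 258 stood in 8 runs with gaps of up to 20000 bp. The run with most regions held 3, on chromosome 1 from 8171459 to 8187796. Its last 2 members (8182964 to 8185468 and 8185613 to 8187796) were 144 bp apart, and between them they covered 93.4% of the 2188 bp gene LOC11428091. By length, the first 3 runs lay on chromosome 3 (41993652 to 42018180), chromosome 4 (60608151 to 60629877) and chromosome 1 (41399872 to 41419520), with 2 regions each.

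The 12 best-placed members were 2125 to 6349 bp wide, with mean places of 0.0109 to 0.123%. Of these, 4 crossed a gene end, 4 lay inside a gene, 1 held a whole gene and 3 met no coding gene. The first was also the widest of all members and lay on chromosome 2 (31051486 to 31057834). Replicates 1 to 4 held 4, 2, 3 and 3 peaks there that covered 5036, 5190, 5554 and 4758 bp, with 3828 bp common to all lists. Each list had 1 long peak there, of 3672 to 4334 bp, with shorter ones beside it. At LOC112417027, a gene of 759 bp on chromosome 8, the region (40168196 to 40172271) was instead a single peak in every list, of 4061, 3933, 3398 and 4003 bp, that covered the whole gene. The 4 that lay inside genes were at LOC11433989 (chromosome 7, 25364939 to 25368185), LOC11431983 (chromosome 3, 53510687 to 53514068), LOC25487128 (chromosome 2, 36446283 to 36448407) and LOC11433776 (chromosome 5, 19197913 to 19201507). What these genes encode is not stated in the table used.

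Among the 8 widest members, which were 4055 to 6349 bp wide, 4 were also among the 12 best placed. The third widest stood lower in the lists. It crossed the end of LOC11410130 on chromosome 8 (48284032 to 48288448), with 2, 1, 5 and 3 peaks in replicates 1 to 4 that covered 3542, 4275, 2672 and 3184 bp, at places of 33.6%, 4.68%, 10.7% and 4.48%. The fourth widest held the whole of LOC11408305 on chromosome 3 (34950844 to 34955035). Its peaks covered 3061, 3649, 566 and 2834 bp, so replicate 3 saw a small part of what the other lists saw. Summed over the 4 lists, 5 members held 11 or 12 peaks, and 4 of these were among the 8 widest. Another 9 members tied at 10 peaks, and none of those was among the 8 widest.

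Genes with a name other than a LOC number were few in the gene table, 77 of all coding genes. Members overlapped 2 of them (2.60%), against 0.634% of all coding genes, a count too small to compare. Narrower regions overlapped 11 of the 77, and 1960 of all 31728 coding genes. DELLA2 (LOC120577405) encodes a DELLA protein, a GRAS-family repressor of gibberellin response; DELLA proteins also act in nodulation and mycorrhizal signalling. Its region on chromosome 8 (37952578 to 37954670) held 2, 1, 3 and 2 peaks in replicates 1 to 4, which covered 914, 1645, 999 and 934 bp at places of 12.5%, 35.7%, 8.17% and 8.50%. It lay across 1 end of the gene and over 56.2% of its length, and 347 bp were common to all lists. The next region in all 4 lists followed after a gap of 159 bp, outside the gene, was 1831 bp wide and had a better mean place, 2.84% against 16.2%. The other named gene was NAC969 (LOC11445056), a NAC-family transcription factor gene known in Medicago from salt stress and nodule senescence. Its region on chromosome 4 (39827246 to 39829512) spanned the whole gene of 1596 bp but was the worst-placed of all members, at 66.1%, 87.5%, 80.7% and 32.6%. Peaks of replicates 1 to 4 covered 211, 416, 912 and 1613 bp there, and 0 bp were common to the 4 lists. NAC969 thus met the rule through chained overlaps of different pairs of lists, without an interval shared by all.

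**Figure D5:**
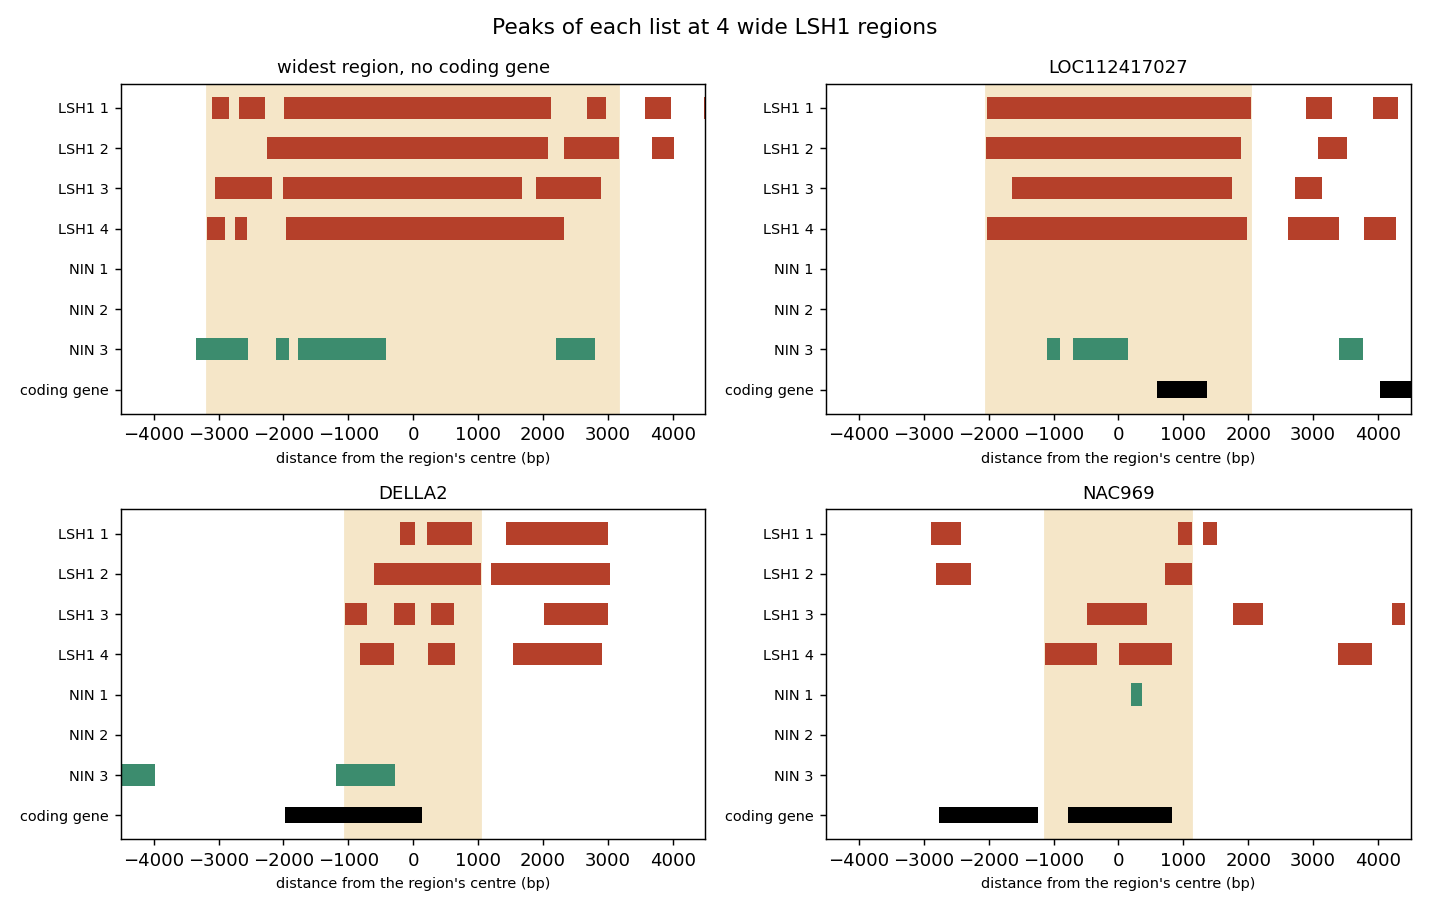
Peaks of each LSH1 list and NIN list and coding genes around the centres of 4 wide regions (shaded), by distance in bp. At LOC112417027 each LSH1 list has 1 long peak, at DELLA2 the lists have 1 to 3 shorter ones, with other peaks beyond the shaded region, and at NAC969 no base of the shaded region has peaks of all 4 LSH1 lists.

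Few genes of nodulation could be looked up. Of 35 genes of nodulation signalling and organogenesis, 13 were matched by symbol or synonym, and 0 of these overlapped a wide region, while 2, NSP1 (a GRAS transcription factor) and the gene of the calcium- and calmodulin-dependent kinase DMI3, overlapped narrower regions. The nearest was NFP (LOC11410973), the LysM receptor kinase of Nod factor perception, 7375 bp from a wide region on chromosome 5 (7165274 to 7168866) that met no gene and had a mean place of 19.2%. Of 8 nodulins and leghemoglobins 0 overlapped a wide region, and 1, MtN13, overlapped a narrower one. Wide regions overlapped 0.634% of all coding genes, and narrower regions 1960 of 31728. Beside these shares, counts of this size say little about either list. Of 2 hormone genes matched, DELLA2 was overlapped by a wide region and DELLA1 only by a narrower one. NAC969 was the only gene matched in the list of transcription factor families. No gene was matched in the list of LSH genes.

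NIN peaks took no part in the rule, and their coverage of wide and narrower LSH1 regions differed by less than the spread between NIN lists. NIN replicates 1, 2 and 3 covered 0.870%, 0.464% and 5.97% of the bases of wide regions, against 0.882%, 0.804% and 5.46% of those of narrower ones. The difference was 0.0509 ± 0.426 percentage points (SD, n = 3), higher in 1 of 3 lists (two-sided exact sign-flip permutation p = 1.00; the smallest that 3 lists allow is 0.25). The same lists covered 0.947%, 2.14% and 12.3% of the 8 chromosomes, which is more than of the wide regions in each list. By overlap of at least 1 bp, 14, 8 and 65 of the 258 members (5.43%, 3.10% and 25.2%) met a peak of NIN replicates 1, 2 and 3, against 3.31%, 2.92% and 14.5% of all LSH1 regions in 4 lists; here width enters. No NIN list met 180 members, and 1 member was met by all 3. This region on chromosome 7 (6620955 to 6623051) reached 177 bp into LOC120576944, an 8179 bp gene, and NIN peaks of replicates 1 to 3 covered 455, 1220 and 1156 bp of it.

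By place in the LSH1 lists, NIN coverage had no common direction. With a mean place of up to 1%, 1 of 52 wide regions and 18 of 121 narrower ones met a peak of NIN replicate 1, and 4 wide and 20 narrower ones met one of NIN replicate 2. Per base these lists covered 0.322% and 0.758% of the wide regions, against 3.05% and 3.83% of the narrower ones. NIN replicate 3, the longest list, met 38.5% of these wide regions and 30.6% of the narrower ones, and covered 10.7% and 10.1% of their bases. Other bins were mixed. From 1 to 5%, NIN replicates 1, 2 and 3 covered 0.801%, 0.0902% and 3.38% of wide bases, against 0.794%, 0.693% and 4.58% of narrower ones. From 5 to 20%, they covered 1.26%, 0.151% and 5.19% of wide bases, against 0.669%, 0.683% and 4.79% of narrower ones. Beyond 20% each NIN list covered more of the wide bases, with 1.49% against 0.689% for NIN replicate 2. The wide values of NIN replicate 2 rest on few regions. It met 1 of 78 wide regions from 1 to 5%, 1 of 87 from 5 to 20% and 2 of 41 beyond 20%. Of the 12 best-placed members, 9 met a NIN list, with 1, 1 and 7 for NIN replicates 1, 2 and 3. Among all members, 69.8% met no NIN list, and 25.2% met NIN replicate 3. These 12 lay in the bin of up to 1%, where NIN replicate 3 met 38.5% of wide and 30.6% of narrower regions. The bins were set after the lists had been seen, and none of these differences was tested.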

How the data were processed

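The 14 libraries of transformed roots gave 7 peak lists, which the authors made, per the labels, from 1 LSH1 or NIN immunoprecipitation and its control each. Every deposited line has a sequence name, start, end and running number, without height, fold or q value. MACS2, Bowtie2, ChIPseeker and Picard are listed, per the submitters' processing notes, and list names carry a q cutoff of 0.05. Their versions and the genome build were not given in the sources. The running number was read as an order by a measure that is not named.

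Regions were merged and counted in Python 3.11.15 with numpy 2.4.6, pandas 2.3.3 and scipy 1.17.1, and checked on simulated lists. The RefSeq genes used (assembly MtrunA17r5.0-ANR) included 31728 coding genes on 8 chromosomes; no genome sequence was used. Of narrower regions, 30.1% had their midpoint 500 bp or less from a gene end, and 17.0% and 16.6% did once genes were shifted by 20000 bp either way. Peaks and genes were therefore compared by position, with no gene coordinates printed. The last gene or peak end on a chromosome stood for its length. Coordinates count from 1.

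Tests were two-sided exact sign-flip permutations over lists. Each set the mean difference against the means after flipping signs of lists. Where all differences share a sign, p is the smallest possible whatever their spread. Since labels do not say that replicates were grown separately, the spread between lists may be technical. The members and gene lists were chosen with earlier results of these data known, and comparisons by width class, place, chromosome and peak structure were added after seeing the data. Named regions were the 12 best placed, the 8 widest, the 8 with most peaks (extended to 14 over a tie), those at named genes, those met by all NIN lists, those at the threshold with ties and the 3 longest runs; table synonyms counted as names, and the bins of the NIN comparison, NFP, the run of 3 regions and the noncoding counts stand outside this rule. Gene lists by product and motifs in promoters were not run, as the gene table has neither products nor sequence.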

Additional observations from a re-analysis of the deposited data

Results flagged for a closer look

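Among 31 values per list, LSH1 replicate 2 stood apart from the other 3 LSH1 lists in 4, by a gap that chance alone gives in about 1 of 20 groups. With 31 values screened, some such gaps can arise by chance. The numbers of peaks, of peaks per region and of gaps follow from each other. Replicate 2 had 390 peaks in wide regions, against 439, 444 and 448 in replicates 1, 3 and 4. It thus had 1.51 peaks per region and 132 gaps between neighbouring peaks of a region. The fewest bases it covered in any wide region were 308 bp, against 206 to 211 bp in the others. Its peaks there were also the widest, with a median of 1260 bp against 643 to 912 bp. Groups of 3 lists were not examined in this way.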

How the results depend on the processing

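With a minimum width of 1500 bp there were 742 regions, 67.0% of them over a coding gene, 521 genes and 43.5% of bases in genes; with 3000 bp there were 41 regions, 82.9%, 37 genes and 49.7%. Joining peaks up to 100 bp apart gave 46.0% of bases in genes. By midpoint, 51.9% of regions lay in a gene, and 94 genes were covered over at least 50%. Without 1 LSH1 list at a time there were 156 to 228 regions, 118 to 175 genes, 73.1 to 73.8% of regions over a gene and 46.2 to 48.7% of bases in genes. The excess of wide over narrower regions in bases in genes was 11.1 to 14.3 percentage points under all of these width, merging and leave-one-out settings. The NIN difference turned to -0.170 percentage points at 1500 bp (exact sign-flip p = 0.75), was 1.395 at 3000 bp (exact p = 0.50), its farthest move, and was -0.176 to 0.246 without 1 NIN list; it was negative without NIN replicate 3. Both held-out differences were positive under all alternatives run, and by region midpoint the first was 7.79 percentage points (exact p = 0.13). The cause of these shifts was not tested. No paired analysis was possible because each list already joins an immunoprecipitation with its control, and LSH1 and NIN lists share only a number.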
